A study of Mus musculus with 10 samples.

Results

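The costamere is a rib-like protein assembly that fastens the Z-discs of a striated muscle cell to the cell membrane and, through integrins, to the matrix outside. Melusin, encoded by Itgb1bp2, is a chaperone-like protein of striated muscle that binds the cytoplasmic tail of integrin β1 and is known for its part in the hypertrophic response of the loaded heart. Around the same receptor sit integrin-linked kinase with its parvin and PINCH partners, and talin and vinculin, which tie integrins to actin. The 10 genes of this assembly that were followed in mouse hearts after forced treadmill training are Itgb1bp2, Itgb1bp1, Itgb1, Ilk, Parva, Lims1, Lims2, Tln1, Tln2 and Vcl. They are 10 of the 56748 genes in the count tables, and all 10 had enough reads to be tested, as did 15454 genes in all. The list was chosen by function, with Itgb1bp2 at its head selected on its reverse-strand counts in training against sedentary hearts, so the differences of the 10 genes in that contrast are given as a description, with calls but without p-values.

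The hearts came from wild-type male C57BL/6 mice that were 8 weeks old when they entered the study. The training group ran on a motorised treadmill at 15 m/min for 120 min a day, on 5 days a week for 8 weeks, after 1 week of acclimatization. The sedentary group held mice of the same age. RNA was taken from the whole heart, ventricles and both atria together, with 5 hearts in each group and 1 library per heart. In such bulk RNA, fewer cells of a type and less RNA per cell cannot be told apart.

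On the strand that the library kit reads, genes received 29461697 to 39431030 counts per heart. Each of the 10 genes had between 560 and 17208 counts in every heart, so that counting error alone was at most 4.23% of a value and at most 1.72% for Itgb1bp2. Levels are given as CPM, which are counts scaled to the library size after correction for library composition. The biological coefficient of variation between hearts, as edgeR estimates it, lay between 5.12% for Parva and 7.52% for Lims2, against a median of 8.05% over all genes tested. Cardiomyocyte markers were abundant in every heart, at a sum between 64698 and 77516 CPM for a list of 10. These markers do not tell how evenly the atria were included.

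At an FDR below 0.1 over all genes tested, 2 of the 10 genes were called, Itgb1bp2 lower and Parva higher in the training hearts, while 7.01% of all genes tested were called (4.26% lower and 2.75% higher). Over all genes 425 of the 1084 calls were higher, and with libraries scaled by their totals alone 1029 of 1368, where Itgb1bp2 was still lower and Parva higher. The training and sedentary hearts did not overlap in CPM for the same 2 genes, against 5.06% of all genes. The other 8 genes were not called. The median log2 fold change of the 10 genes was −0.0088, beside 0.00026 over all genes tested, with 6 of them below 0 and 4 above.

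Melusin's gene Itgb1bp2 (ENSMUSG00000031312) lies on the X chromosome of GRCm39 from 100492665 to 100508645 on the forward strand. Its level was 126, 123, 109, 122 and 112 CPM in training hearts 1 to 5. In sedentary hearts 1 to 5 it was 155, 150.2, 152, 155 and 145 CPM. Every training heart lay below every sedentary heart, and the gap between the groups was wider than the range within either group. The means were 118 ± 7.36 CPM (SD, n = 5) after training and 151 ± 4.28 CPM (SD, n = 5) without training, and the log2 fold change was −0.36 (standard error, SE, 0.045, 95% interval −0.46 to −0.25), a difference of −21.8%. Its call held when any 1 of the 10 hearts was dropped, with log2 fold changes between −0.38 and −0.33.

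**Figure D1:**
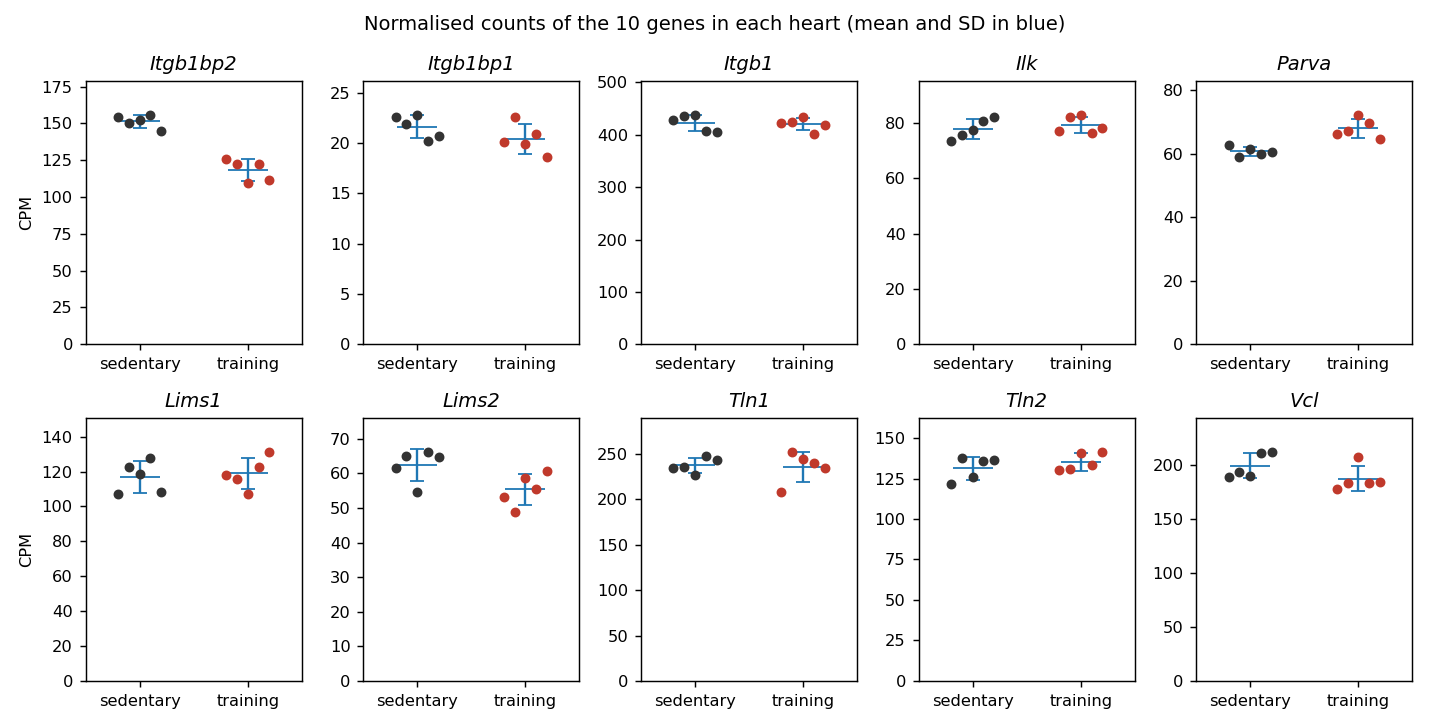
CPM of each of the 10 genes (vertical axes, from 0) in the sedentary (black) and training (red) hearts, in the order of the mouse numbers from left to right, with mean and SD in blue. Itgb1bp2 lies between 109 and 126 CPM after training and between 145 and 155 CPM without training, Parva is separated the other way by a narrow gap, and the groups overlap for the other 8 genes.

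Counts of Itgb1bp2 are not shared with a neighbour. No exon of another gene overlaps it on either strand, none of its annotated transcripts shares a stretch of 100 bases, the read length, with a transcript of another gene, and at most 12 counts per heart were on the opposite strand. RSEM expected counts, which also use reads that map to several places, gave a log2 fold change of −0.37.

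Itgb1bp1 (ENSMUSG00000062352, chromosome 12) encodes ICAP-1, a different adaptor that binds the same integrin tail and restrains integrin activation. Its level after training was 20.4 ± 1.48 CPM (SD, n = 5), beside 21.6 ± 1.13 CPM (SD, n = 5) without training. Its log2 fold change was −0.082 (95% interval −0.22 to 0.052), and 3 of 5 training hearts lay below all sedentary hearts. The receptor subunit itself, Itgb1 (ENSMUSG00000025809, chromosome 8), averaged 420.4 ± 11.7 CPM after training and 422 ± 15.1 CPM without training, with a log2 fold change of −0.0072 (95% interval −0.097 to 0.083). For Itgb1 the groups overlapped almost completely, between 402 and 434 CPM after training and between 405 and 437 CPM without training.

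Within a heart, the ratio of Itgb1bp2 to Itgb1 does not depend on how libraries are scaled. On the scale of TPM, abundances corrected for gene length, this ratio was 0.584 ± 0.043 (SD, n = 5) in the training and 0.722 ± 0.027 (SD, n = 5) in the sedentary hearts. Training hearts 1 to 5 were at 0.613, 0.599, 0.520, 0.626 and 0.562, and the lowest sedentary heart was at 0.686, so the groups did not overlap. Against Itgb1bp1 the same gene was at a TPM ratio between 3.48 and 4.44 in the training hearts and between 4.68 and 5.81 in the sedentary hearts, again without overlap.

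Integrin-linked kinase forms a complex with a parvin and a PINCH protein, which holds it at the integrin tail and on actin. Parva (ENSMUSG00000030770, chromosome 7 from 112026712 to 112190915, forward strand) encodes α-parvin, the actin-binding arm of that complex. Its level was 66.2, 67.1, 72.0, 69.7 and 64.5 CPM in training hearts 1 to 5. Sedentary hearts 1 to 5 were at 62.6, 59.0, 61.4, 60.0 and 60.5 CPM. All training hearts lay above all sedentary hearts, though the lowest training and the highest sedentary heart were close to each other. The log2 fold change of Parva was 0.16 (SE 0.040, 95% interval 0.069 to 0.25), from a mean of 60.7 ± 1.38 CPM (SD, n = 5) to 67.9 ± 2.97 CPM (SD, n = 5), a difference of 11.8%. Without training heart 3 it was 0.14, without training heart 4 or sedentary heart 2 it was 0.15, and in these 3 fits the gene was no longer called, nor without a filter on low counts, at 0.15. In the deposited TPM the groups overlapped. Training heart 1 was at 16.8 TPM and training heart 5 at 19.49 TPM, against 16.4 to 19.52 TPM in the sedentary hearts.

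The kinase gene Ilk (ENSMUSG00000030890, chromosome 7 from 105385782 to 105392182, forward strand) was at 79.5 ± 2.93 CPM (SD, n = 5) after training and 77.9 ± 3.56 CPM (SD, n = 5) without training. The groups overlapped, and the log2 fold change was 0.029 (95% interval −0.069 to 0.13). Lims1 (ENSMUSG00000019920, chromosome 10) encodes PINCH1, and it averaged 119.0 ± 8.77 CPM after training and 117 ± 8.97 CPM without training, with a log2 fold change of 0.026 (95% interval −0.11 to 0.17). Lims2 (ENSMUSG00000024395, chromosome 18) encodes PINCH2, the other form of that adaptor. Training hearts 1 to 5 were at 53.2, 49.0, 58.7, 55.4 and 60.5 CPM of Lims2, and sedentary hearts 1 to 5 at 61.7, 65.0, 54.6, 66.1 and 64.7 CPM. All 5 training hearts lay below the sedentary mean, but sedentary heart 3 lay among them. The log2 fold change of Lims2 was −0.17 (SE 0.064, 95% interval −0.32 to −0.025), and it was not called over all genes.

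**Figure D2:**
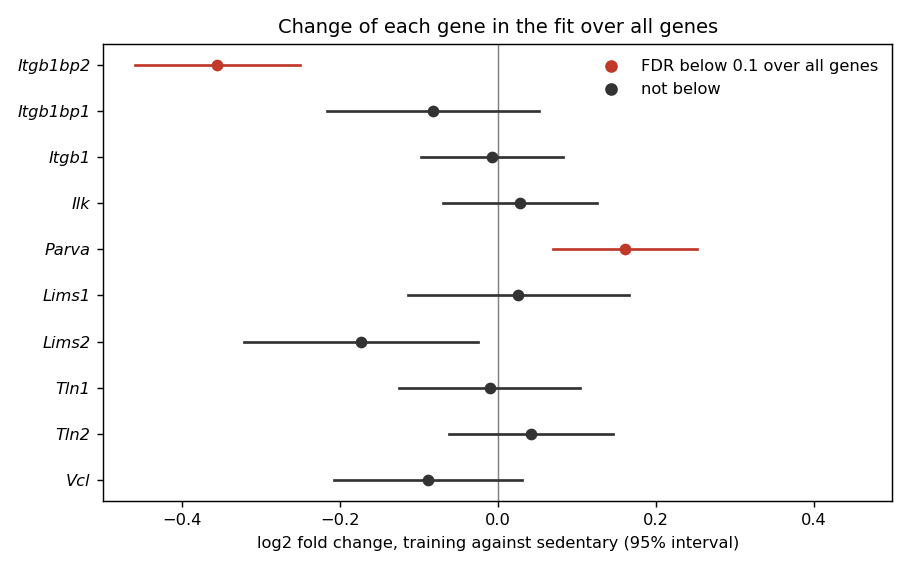
Difference of training from sedentary hearts as log2 fold change (horizontal axis) for the 10 genes, as points with 95% intervals of each single gene, from the fit over all genes; red marks an FDR below 0.1. Itgb1bp2 is at −0.36 and Parva at 0.16, and the interval of Lims2 reaches from −0.32 to −0.025 without a call.

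Talin and vinculin make up the link from the integrin to actin: talin binds the tail and switches the integrin on, and vinculin strengthens the bond. Tln1 (ENSMUSG00000028465, chromosome 4) averaged 236 ± 16.6 CPM (SD, n = 5) after training and 237 ± 8.19 CPM (SD, n = 5) without training, with a log2 fold change of −0.010 (95% interval −0.13 to 0.10). Tln2 (ENSMUSG00000052698, chromosome 9) averaged 135 ± 5.40 CPM and 131 ± 7.11 CPM, with a log2 fold change of 0.042 (95% interval −0.062 to 0.15). The 2 talin genes thus differed between the groups by less than the spread between hearts. Vcl (ENSMUSG00000021823, chromosome 14 from 20979449 to 21083758, forward strand) encodes vinculin. It was at 177, 183, 207, 183 and 184 CPM in training hearts 1 to 5 and at 188, 193, 190, 211 and 212 CPM in sedentary hearts 1 to 5. Training heart 3 stood apart, while the other 4 training hearts lay below all sedentary hearts. The log2 fold change of Vcl was −0.089 (95% interval −0.21 to 0.030), and it was −0.13 without training heart 3, uncalled in both fits.

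For levels between genes, TPM as deposited were used, since they are corrected for length. Itgb1 was the highest of the 10 at 163 ± 12.2 TPM (SD, n = 5) in the sedentary hearts, followed by Itgb1bp2 at 117 ± 7.08 TPM. Then came Lims2 at 53.5 ± 5.17 TPM, Ilk at 51.8 ± 1.80 TPM, Lims1 at 40.2 ± 3.86 TPM and Vcl at 38.7 ± 1.77 TPM. Tln1 at 30.6 ± 1.22 TPM, Itgb1bp1 at 23.5 ± 2.81 TPM, Parva at 17.6 ± 1.29 TPM and Tln2 at 14.7 ± 0.434 TPM were the lowest. In this order, Lims2 and Ilk overlapped over the sedentary hearts, as did Lims1 and Vcl, while the other neighbours did not overlap. After training Itgb1bp2 stayed in the second place at 97.0 ± 3.76 TPM, and Ilk at 56.6 ± 4.25 TPM came before Lims2 at 44.5 ± 6.10 TPM, with overlapping ranges. Within each group the order stayed the same when levels were computed from the counts of the reverse strand and the effective gene lengths.

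**Figure D3:**
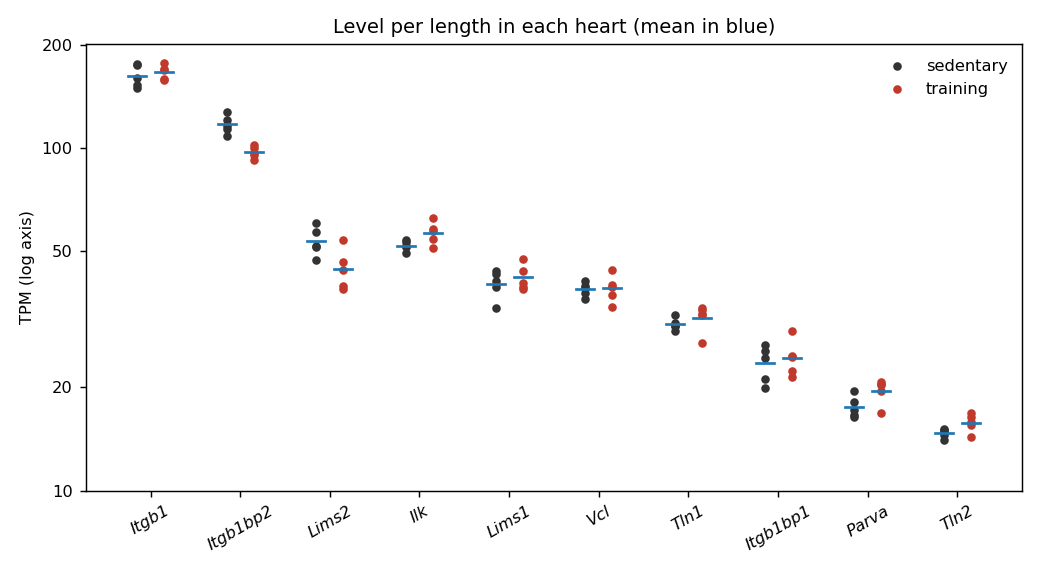
TPM as deposited (vertical log axis) of the 10 genes in each sedentary (black) and training (red) heart, in order of the sedentary mean, with group means in blue. Itgb1 and Itgb1bp2 stand above the other 8 genes in all 10 hearts, and Lims2 and Ilk change places between the groups.

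The pairs of related genes were then set against each other within each heart. The TPM ratio of Lims2 to Lims1 was 1.06 ± 0.119 (SD, n = 5) in the training and 1.35 ± 0.262 (SD, n = 5) in the sedentary hearts. Its ranges overlapped, from 0.957 to 1.23 after training and from 1.10 to 1.77 without training. Tln2 to Tln1 was 0.495 ± 0.028 in the training and 0.482 ± 0.030 in the sedentary hearts, also overlapping. β-parvin, encoded by Parvb, can take the place of α-parvin beside Ilk. The ratio of Parvb to Parva, a pair chosen after the calls of both genes were seen, was 1.66 ± 0.186 (SD, n = 5) after training and 2.07 ± 0.207 (SD, n = 5) without training. The training hearts ran from 1.42 to 1.94 and the sedentary hearts from 1.78 to 2.34, so that training heart 1 and sedentary heart 1 overlapped.

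**Figure D4:**
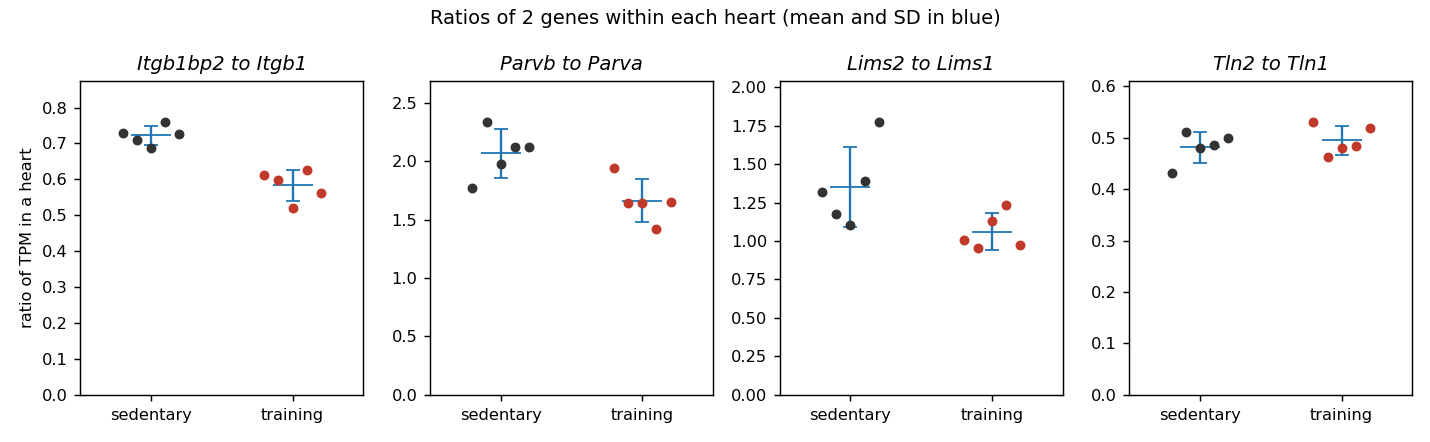
Ratio of the TPM of 2 genes within each sedentary (black) and training (red) heart, for 4 pairs, on axes from 0, with mean and SD in blue. Itgb1bp2 to Itgb1 is at most 0.626 after training and at least 0.686 without training, while the groups overlap in the other 3 pairs.

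Markers of cell types moved between the groups beside these genes. The summed level of 10 cardiomyocyte markers was between 64698 and 68623 CPM in the training hearts and between 68729 and 77516 CPM in the sedentary hearts, and 2 of the 10 were lower and 0 higher at an FDR below 0.1 (edgeR; 4 markers had an unadjusted p under 0.05, and DESeq2 called 4). Per 1000 CPM of these markers, a scale chosen after the sums were seen, Itgb1bp2 was at 1.77 ± 0.0826 CPM (SD, n = 5) after training and 2.06 ± 0.116 CPM (SD, n = 5) without training. The hearts did not overlap on that scale, with at most 1.85 after training and at least 1.94 without training. The log2 quotient of the means was smaller there, at −0.22 beside a log2 fold change of −0.36 in CPM. For Parva it was larger, at 0.29 beside 0.16. Of 8 fibroblast markers, 3 were higher, Pdgfra, Lum and Gsn, while Dcn, Col1a1 and Col1a2 were among those not called. The sum of all 8 ran from 2856 to 3802 CPM after training and from 2617 to 2980 CPM without training. Most of that sum was Gsn, at a mean of 1965 CPM of 3275 CPM after training and 1574 CPM of 2753 CPM without training. Endothelial markers summed to between 942 and 1013 CPM in the training and between 1041 and 1087 CPM in the sedentary hearts, with 2 of 8 lower. Called were 20% of the cardiomyocyte, 37.5% of the fibroblast and 25% of the endothelial markers, beside 7.01% of all genes tested. By sign, 9 of 10 cardiomyocyte and 6 of 8 endothelial markers were below 0, and all 8 fibroblast markers were above 0. The part of cell type shares in these differences was not tested.

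Of 8 atrial markers, 3 were higher after training, 37.5% of the list beside 7.01% of all genes tested. These were Sln at a log2 fold change of 0.75, Dkk3 at 0.73 and Stard10 at 0.48. All 8 were above 0, with a median of 0.49, and 6 had an unadjusted p under 0.05 in edgeR. The sums of the list overlapped, between 5207 and 7818 CPM after training and between 2883 and 6993 CPM without training. Nppa averaged 3516 ± 581 CPM (SD, n = 5) after training and 2554 ± 1004 CPM (SD, n = 5) without training, and Myl7 703 ± 117 CPM and 495 ± 176 CPM, neither past the FDR. With a score of the atrial markers as a covariate, Itgb1bp2 was called, with a log2 fold change of −0.37 (SE 0.061, beside 0.045 without the score). Under the same covariate Parva was at 0.11 (SE 0.052, beside 0.040) and not called. Over all genes only 69 of 15454 were called in that fit, against 1084 without the score. All 8 markers of the score were higher after training, so score and group are not independent. The part of atrial content in these differences was not tested. Of the mural markers 1 of 8 was higher and 1 lower, 25% of the list beside 7.01% of all genes tested. Of 8 adipocyte markers only Fabp4 was called, lower at −0.24, 12.5% of the list beside 7.01% of all genes tested. Fabp4 averaged 395 CPM after training and 466 CPM without training, while the other 7 averaged at most 69.0 CPM in either group. Those 7 were above 0, and the median of the list was 0.74. The call of Fabp4 is therefore no measure of adipocytes. Of 6 tested skeletal muscle markers, 2 were called lower, 33.3% beside 7.01% of all genes tested, and 3 were below 0 and 3 above. Those called were Acta1, at a mean of 310 CPM after training and 556 CPM without training, and Ckm, at 1636.5 and 1909 CPM. The other 4 tested averaged at most 1.31 CPM in either group, and Myh1, Myh2 and Myh4 were too low to be tested. The 2 calls are therefore no measure of skeletal muscle in the samples. No macrophage marker of 8 was called, and 0 had an unadjusted p under 0.05 in edgeR or a call in DESeq2. The marker lists held no gene that was at 0 in every heart.

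The same fit was read for 6 lists of genes around the assembly, with 132 genes of which 130 were tested. At an FDR below 0.1, 2 were higher and 6 lower in the training hearts, and their median log2 fold change was −0.016. These 8 calls are 6.15% of the tested genes of the lists, beside 7.01% of all genes.

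Of 19 other integrin subunits, which are α subunits that pair with integrin β1 and further β subunits, 17 were not called. The 2 calls are 10.5% of the list, beside 7.01% of all genes tested. Itga1, the collagen-binding α1 subunit, fell from 67.9 ± 5.73 CPM (SD, n = 5) to 57.0 ± 3.52 CPM (SD, n = 5), which is a log2 fold change of −0.25 (SE 0.061, Benjamini-Hochberg adjusted p = 0.0406 in edgeR's quasi-likelihood fit). Itgb4 rose, by 0.36 on the log2 scale, at a level of 6.31 ± 0.994 CPM after training (adjusted p = 0.0999 in the same edgeR test). Itga1 was not called without training heart 3 or sedentary heart 3, at −0.23 in both fits, nor with library totals alone, at −0.20, or the atrial score, at −0.24. Itgb4 kept its call without training heart 1 or sedentary heart 1 and lost it without any 1 of the other 8 hearts, where it was between 0.31 and 0.40. Its call was also lost with RSEM expected counts, at 0.34, with counts of both strands, at 0.36, with the mouse number as a block, at 0.35, and with the atrial score, at 0.18. Of 16 tested laminins and other ligands, 0 were called by edgeR, 4 had an unadjusted p under 0.05 and DESeq2 called 1, with a median log2 fold change of 0.045.

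Of 32 tested adaptors and kinases of the adhesion, such as kindlins, paxillin and focal adhesion kinase, 1 was called, 3.1% beside 7.01% of all genes tested. This was Parvb, which fell from 127 ± 10.3 CPM (SD, n = 5) to 109.8 ± 5.00 CPM (SD, n = 5), with a log2 fold change of −0.21 (SE 0.056, Benjamini-Hochberg adjusted p = 0.0565 in edgeR's quasi-likelihood fit). Its call was lost without training heart 4 or 5 and without sedentary heart 3, 4 or 5, where the log2 fold change lay between −0.20 and −0.18, and with the atrial score, where it was −0.14. Among 19 genes for partners of melusin and the kinases downstream, the regulatory subunit of PI3-kinase Pik3r1 was the 1 gene called. It fell from 268 ± 19.8 CPM without training to 201 ± 23.2 CPM after training, the hearts not overlapping, with a log2 fold change of −0.42 (SE 0.075, Benjamini-Hochberg adjusted p = 0.0153 in edgeR's quasi-likelihood fit). Pik3r1 kept its call in each fit without 1 heart. Chordc1, which like melusin carries CHORD domains and is the broadly expressed member of that family, was at 38.4 ± 1.32 CPM after training and 40.5 ± 2.01 CPM without training. Its log2 fold change was −0.079 (SE 0.044), and it was not called (adjusted p = 0.348 in the same edgeR test).

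The dystrophin complex is the other system of the costamere that reaches from the cytoskeleton to laminin. Of its 19 genes, 2 were lower and 1 higher, 15.8% of the list beside 7.01% of all genes tested. DESeq2 called 6, and 8 had an unadjusted p under 0.05 in edgeR. The median log2 fold change was −0.032, and 13 of the 19 genes were below 0, beside 7716 of 15454 over all genes tested. Dmd, the gene of dystrophin, fell from 133 ± 11.9 CPM (SD, n = 5) to 111 ± 7.41 CPM (SD, n = 5), which is a log2 fold change of −0.26 (SE 0.063, Benjamini-Hochberg adjusted p = 0.0402 in edgeR's quasi-likelihood fit). Sgce, for ε-sarcoglycan, rose by 0.22 on that scale (adjusted p = 0.0892 in the same edgeR test), and it kept its call without training heart 2 or sedentary heart 1 but lost it without any 1 of the other 8 hearts, at 0.18 to 0.24. Sgce was at 0.087 with the atrial score and at 0.21 without a filter, and with RSEM expected counts at 0.22, in each case without a call. Dmd lost its call without sedentary heart 3, at −0.24, and with library totals alone, at −0.21.

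Of 25 genes that link the costamere to the Z-disc, among them desmin, plectin and filamin C, 1 was called and DESeq2 called 2. The 1 call is 4% of the list, beside 7.01% of all genes tested. Below 0 were 18 of the 25, beside 7716 of 15454 over all genes, with a median log2 fold change of −0.054. Ldb3, which encodes the Z-disc protein cypher, fell from 1249 ± 67.8 CPM (SD, n = 5) to 1088 ± 43.9 CPM (SD, n = 5), which is a log2 fold change of −0.20 (SE 0.048, Benjamini-Hochberg adjusted p = 0.0406 in edgeR's quasi-likelihood fit). It was not called without sedentary heart 3, where its log2 fold change was −0.18, or with the atrial score, where it was −0.19.

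**Figure D5:**
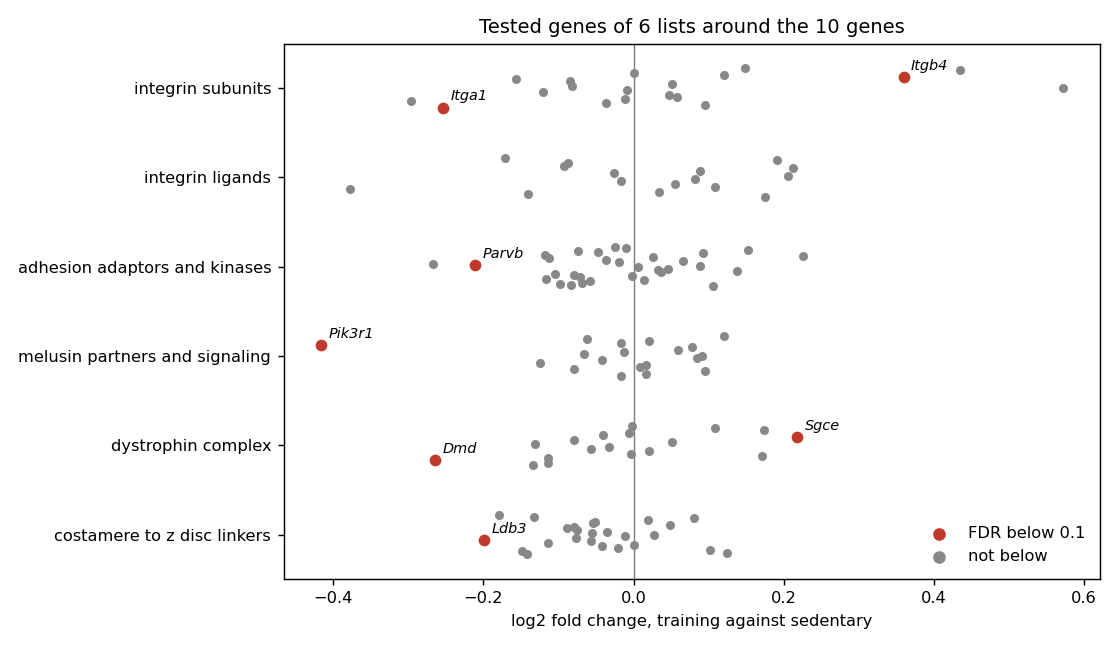
Difference of training from sedentary hearts as log2 fold change (horizontal axis) for the tested genes of 6 lists, 1 gene left out, with genes past an FDR of 0.1 in red and named. Pik3r1 at −0.42 and Dmd at −0.26 are the lowest of the named genes, Itgb4 at 0.36 and Sgce at 0.22 are the ones called higher, and the 2 points right of Itgb4 were not called.

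The genes whose pattern over the 10 hearts was most like that of Itgb1bp2 were ranked by Pearson's r of log2 CPM, among 8495 other tested genes whose mean reached 10 CPM. As both groups enter it, this measure mostly reads the difference between training and sedentary hearts, and it is given as a description. The first 4 were Mrpl3 (r = 0.98, Spearman's rho = 0.94), Mrpl4 (r = 0.98, rho = 0.88), Gm31166 (r = 0.96, rho = 0.87) and Miga2 (r = 0.96, rho = 0.90). Mrpl3 and Mrpl4 encode proteins of the large mitochondrial ribosomal subunit, and Miga2 a protein of the outer mitochondrial membrane. All 4 had lower means in the training hearts, by 0.15 for Mrpl4 to 0.32 for Gm31166 on the log2 scale, where Itgb1bp2 differed by −0.36. After the group means were taken out, r with Itgb1bp2 was between 0.73 for Miga2 and 0.87 for Mrpl4. The 4 genes were picked by r over these same hearts, so the values within groups are no separate support.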

How the data were processed

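RNA sequencing data of 10 mouse hearts, 5 training and 5 sedentary, were used. Per the labels, the authors aligned single reads with STAR 2.7.10a to GRCm39, and the file of each heart, as deposited, holds raw counts of reads that map once, by gene, in 1 column for both strands together and 1 for each. The authors also deposited RSEM 1.3.3 expected counts, TPM and effective lengths, whose strand setting is not given in the sources used here. None of the counts was normalised or filtered.

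Counts of the reverse strand, between 94.9% and 95.7% of those on either strand, were tested with edgeR 4.0.16 under R 4.3.3 (genes kept by filterByExpr, TMM scaling, quasi-likelihood F test, Benjamini-Hochberg adjustment over all tested genes, FDR below 0.1). Lines that are no gene were left out; multimapping reads were 17.9% to 19.2% of all reads. Standard errors are the log2 fold change over the root of F, and 95% intervals use 8 residual degrees of freedom. Log2 CPM used a prior count of 2. Symbols came from GENCODE M39, which matched 56017 of 56748 identifiers. Stretches of 100 bases shared with other genes were searched with blastn 2.17.0 in the GENCODE transcripts.

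The 10 genes, the 6 lists around them, the 8 marker lists and the tests were chosen with earlier results of these data known. Named were the 10 genes, at most 4 called genes of each list, Chordc1, Nppa, Myl7 and the 5 genes most like Itgb1bp2; 1 gene is not reported here. Alternatives were DESeq2 1.42.0, its size factors, RSEM expected counts (rounded), counts of both strands, scaling by library totals alone, a minimum of 10 counts in each heart, no filter on low counts, the mouse number as a block, an atrial score, an FDR below 0.05 and each heart left out. The labels do not say whether equal mouse numbers mark paired hearts, and the main fit did not use the numbers.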

Additional observations from a re-analysis of the deposited data

Results flagged for a closer look

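Vcl in training heart 3 was at 207 CPM, whereas the other 4 training hearts lay between 177 and 184 CPM. The gap to the nearest heart was 0.773 of the range of the group, above the limit of 0.71 for 5 samples (Dixon's criterion). It was the 1 value so found in 20 groups of 5 hearts, and chance gives about 1 in 20.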

How the results depend on the processing

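Itgb1bp2 was called under all 9 other fits at the same FDR, with log2 fold changes from −0.37 to −0.30. Of the 10 genes, 1 was called without a filter or with the atrial score and 1 to 2 without 1 heart (1 without training heart 3 or 4 or sedentary heart 2). Of the genes of the 6 lists, 15 were called by DESeq2, 14 with library totals alone, 3 with the atrial score and 5 at an FDR below 0.05, and 2 to 13 without 1 heart (13 without training heart 2, 2 without sedentary heart 3, and 5 without training heart 3, 4 or 5 or sedentary heart 4 or 5). Over all genes 69 were called with the atrial score, 57 of them among the 1084 called in the report, 505 at an FDR below 0.05, and 512 to 1490 without 1 heart (540 without training heart 3, 512 without training heart 4 or sedentary heart 3, 611 without sedentary heart 2 and 671 without sedentary heart 4). Library totals alone gave 1029 higher genes among 1368, against 425 among 1084, with Itgb1 at 0.046 and Tln1 at 0.045 and neither called. Ilk was at −0.57 (SE 0.43) in counts of both strands and not called, on only 1 to 18 counts per heart. Without 1 heart, the sign turned for Itgb1 (−0.022 to 0.010), Lims1 (−0.011 to 0.061) and Tln1 (−0.036 to 0.031), never with a call. Levels per length from counts were 1.57 to 1.72 times the TPM in the same order, and the sedentary ratio of Itgb1bp2 to Itgb1 was then 0.770. With the mouse number as a replicate block, 2 of the 10 genes, 7 list genes and 1137 genes over all were called, Itgb4 not; residuals of hearts with the same number had a correlation from −0.097 to 0.16, and 1 training heart correlated best with its own number. Where not stated, the cause was not tested.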

Other observations

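The column of counts for both strands held at most 18 counts of Ilk in any heart, where the reverse strand held between 2362 and 3094. Exons of Rrp8 and Taf10 overlap those of Ilk on the opposite strand, and 949 bases is the longest stretch that transcripts of Ilk share with one of them. For Vcl, whose exons overlap those of Ap3m1, the column for both strands held between 56.2% and 59.1% of the counts on the reverse strand, and for Lims2, beside Gpr17, between 86.2% and 91.4%. Lims2 was called in counts of both strands, with a log2 fold change of −0.21. For Itgb1bp2 and Parva that column held between 100% and 101% of the reverse-strand counts.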
